A study of Homo sapiens with 6 samples.

Results

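The Frizzled receptors are the 10 genes FZD1 to FZD10, and they were taken by name from the 58174 genes of the transcriptome sequencing of BRCA1-overexpressing SiHa cells. SiHa is an established human cell line from a cervical squamous cell carcinoma. The OV-BRCA1 group (3 samples) received the GV230-BRCA1 plasmid and the NC group (3 samples) received the empty GV230 plasmid, both by transient transfection with a lipid reagent, and RNA was taken after 48 h. Both groups are of 1 cell line and both carry vector DNA, and the promoter that drives BRCA1 in the plasmid is not given in the sources used here. The study calls the samples biological replicates. The comparison asks which receptors for WNT ligands differed between cells with and without added BRCA1, since WNT signaling is a pathway the study examined for chemoradiotherapy resistance. All 10 genes were among the 16321 genes tested.

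Frizzled proteins are multipass membrane receptors. WNT ligands bind their extracellular cysteine-rich domain, and the co-receptors LRP5 and LRP6 join them to start beta-catenin signaling. Inside the cell the Dishevelled proteins bind the receptor and pass the signal on, either to beta-catenin or to the planar cell polarity branch that organizes the cytoskeleton. The amount of receptor at the membrane is set in part by the ubiquitin ligases RNF43 and ZNRF3, which remove Frizzled and are held back by R-spondins. In epithelial cells and carcinomas several family members are usually expressed together.

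Dishevelled binds a short stretch just after the last membrane pass, lysine-threonine, 3 variable residues and tryptophan. A search of the coding sequences of GENCODE release 29 (GRCh38) found this stretch once in each of the 10 genes. The 18 coding bases are shown because they encode a stretch that all members hold, whether called higher, called lower or not called. Capitals mark the codons for lysine, threonine and tryptophan, and 8 of the 10 genes are printed.
FZD1: AAGACCctcaactccTGG
FZD2: AAGACGctgcactcgTGG
FZD7: AAGACCctgcagtcgTGG
FZD5: AAGACGgtggagtcgTGG
FZD8: AAGACGctggagtccTGG
FZD9: AAGACTttccagaccTGG
FZD10: AAGACTctgcagtccTGG
FZD4: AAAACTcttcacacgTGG
The stretch ended 17 codons before the stop codon in FZD1, FZD2 and FZD7, 50 in FZD10, 54 in FZD9 and 81 in FZD8. By identity of the aligned coding bases, FZD1 and FZD2 were each other's closest relative (81.8%), FZD7 was closest to FZD2 (81.2%), FZD5 and FZD8 formed a pair (78.6%) and so did FZD9 and FZD10 (73.7%). FZD4 had no relative above 63.1%, and FZD3 and FZD6 were closest to each other at the same 63.1%.

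The deposited values are FPKM, read pairs divided by transcript length and sequencing depth, and each gene was given the sum of its transcripts. In such bulk samples, fewer cells that express a gene and less RNA per cell cannot be told apart. The depth behind them was estimated at 14.32 M to 19.4 M fragments per sample (M, mega). BRCA1 itself was higher in every OV-BRCA1 sample, with a ratio of mean FPKM of 1.97. KRT17, KRT18 and KRT8 had FPKM values of 188 or more in all 6 samples, whereas the squamous basal markers KRT5 and TP63 did not exceed 0.202 and 0.369. Of the 12 squamous epithelial markers 8 were tested and 5 were called at an adjusted p below 0.05 in limma, beside 35.3% of all tested genes. KRT8, KRT18 and EPCAM were higher in OV-BRCA1 and KRT17 was lower. The study lists KRT17 and KRT8 as downregulated, so the direction of KRT8 differs from the study's. KRT6A was higher but reached the filter on low values through its OV-BRCA1 samples alone. The summed FPKM of the list was 1832 to 1973 in OV-BRCA1 and 2236 to 2323 in NC. The 7 fibroblast markers summed to 5.42 to 6.01 FPKM in OV-BRCA1 and 7.55 to 8.77 in NC, with COL1A1 called lower and LUM at 0 throughout. The 6 leukocyte markers summed to 6.78 to 9.21 and 18.04 to 20.6 FPKM, nearly all of it CD14, which was called lower, with PTPRC at 0. The 5 endothelial markers summed to 0.815 to 1.51 and 0.651 to 0.796 FPKM, with VWF and KDR at 0 and none called. The part of these markers in the results was not tested. Mitochondrial genes took 14.8% to 17.2% of all FPKM in OV-BRCA1 samples and 21.0% to 23.2% in NC samples. With FPKM rescaled to nuclear protein-coding genes, each of the 10 genes kept its side of the threshold.

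Of the 10 Frizzled genes, FZD9, FZD6, FZD4 and FZD8 were higher in the OV-BRCA1 group and FZD10 was lower. FZD9 nearly doubled, FZD4, FZD6 and FZD8 rose by a ratio of mean FPKM of 1.60 to 1.69, and FZD10 fell to 0.276 of its NC level. FZD1, FZD2, FZD3, FZD5 and FZD7 did not pass the test. The test was limma's moderated test on log2(FPKM + 1) with Benjamini-Hochberg adjustment over all genes tested, and a gene was called at an adjusted p below 0.05. The 4 genes called higher stand beside a background of 16.4% of all tested genes, and the 1 gene called lower beside 18.9%. In both directions together 5 of 10 were called, against 35.3% of all genes. The 10 genes had a median log2 fold change of 0.28, beside -0.04 over everything tested. OV-BRCA1 and NC samples were fully separated in 7 of the 10, a property that 50.8% of all tested genes had. These counts include FZD10, which reached the filter on low values through its NC samples alone, so its direction and separation followed from the filter. The study's own criterion asks in addition for an absolute log2 fold change above 1, and the study applied it to DESeq results. Here it was applied to limma differences of log2(FPKM + 1), which understate the ratio at low FPKM. On this scale 3.99% of all tested genes passed and 0 of the 10 Frizzled genes did. At an unadjusted p below 0.05 the count was 6 without the fold change and still 0 with it. Leaving out NC replicate 1 or NC replicate 2 reduced the genes called from 5 to 3, because FZD10 then no longer reached the filter on low values and FZD8 no longer passed.

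**Figure D1:**
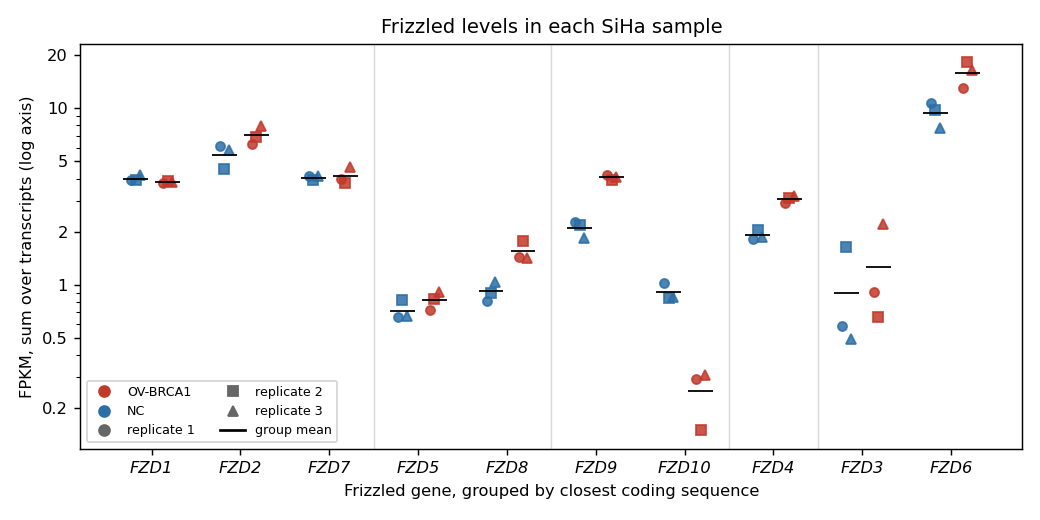
FPKM of each Frizzled gene in each sample, on a log axis, with blue points for NC, red points for OV-BRCA1, symbols for the replicate number and bars for the group means (n = 3). Red and blue points stand apart for FZD9, FZD4, FZD8 and FZD6, with red above, and for FZD10, with red below, and more narrowly for FZD2 and FZD1, which were not called.

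**Figure D2:**
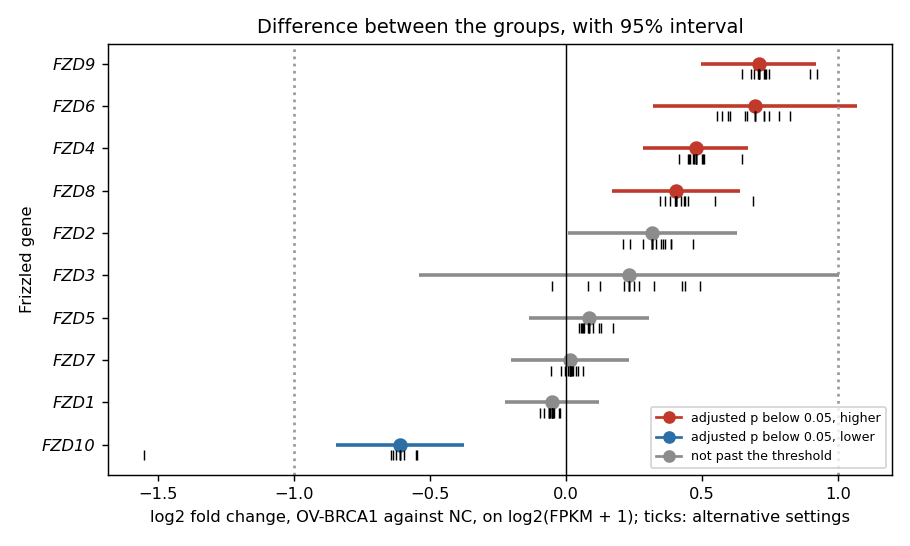
Log2 fold change of OV-BRCA1 against NC on log2(FPKM + 1) with its 95% confidence interval from limma, ordered by size, with ticks for the value under each alternative setting. The intervals of FZD9, FZD6, FZD4 and FZD8 lie above 0, as does that of FZD2, which was not called after adjustment, that of FZD10 lies below 0, and the tick of FZD10 beyond -1 is the pseudocount of 0.1.

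FZD9, whose gene lies in the region deleted in Williams syndrome, had the smallest adjusted p of the family. It stood at 4.18, 3.93 and 4.07 FPKM in OV-BRCA1 replicates 1, 2 and 3, and at 2.27, 2.19 and 1.85 in the NC replicates in the same order. Every OV-BRCA1 sample was far above every NC sample, and the samples within a group lay close together. The group means were 4.06 ± 0.122 and 2.10 ± 0.224 (SD, n = 3 each), a ratio of 1.93. On the log2(FPKM + 1) scale the difference was 0.71 (standard error, SE, 0.09, 95% confidence interval 0.50 to 0.92, limma adjusted p = 0.00171). Because 1 is added to each value, this scale understates the ratio of genes with low FPKM. FZD9 (ENSG00000188763, GRCh38 chromosome 7, 73433783 to 73436120, plus strand) is a gene of 1 exon and 1 listed transcript. None of its 50-base stretches occurs in a transcript of another gene, and each sample held an estimated 83.7 to 159 of its fragments. It stayed past the threshold in all 14 alternatives.

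FZD10, the closest relative of FZD9, moved the other way. Its FPKM was 0.294, 0.150 and 0.307 in the OV-BRCA1 samples and 1.03, 0.844 and 0.852 in the NC samples, listed by replicate number. All OV-BRCA1 samples were below all NC samples, and the NC samples were similar to each other. The means were 0.250 ± 0.0872 and 0.907 ± 0.103 (SD, n = 3 each), so the NC level was 3.62 times the OV-BRCA1 level. The log2(FPKM + 1) scale gave a difference of -0.61 (SE 0.10, 95% confidence interval -0.84 to -0.38, limma adjusted p = 0.00462). With a pseudocount of 0.1 the same gene had a log2 fold change of -1.55 in limma, past the study's fold change cut. The study's list of downregulated genes does not name FZD10. FZD10 reached the filter on low values through its NC samples alone, so its direction followed from the filter. With no filter on low values it was also called lower (log2 fold change -0.61, limma adjusted p = 0.00907). The estimated fragments were 8.17 to 15.7 per OV-BRCA1 sample and 52.9 to 54.8 per NC sample. FZD10 (ENSG00000111432, chromosome 12, 130162459 to 130165740, plus strand) has 1 exon, and it shares no 50-base stretch with other genes.

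The ratio of FZD9 to FZD10 FPKM within a sample was 14.2, 26.2 and 13.3 in the OV-BRCA1 samples and 2.21, 2.59 and 2.17 in the NC samples. This ratio restates the calls of the 2 genes and is given as a description, and in the OV-BRCA1 samples it rests on the few fragments of FZD10. The longest identical run of the FZD9 and FZD10 transcripts is 39 bases, shown here because it is far shorter than the 150 bases used to ask whether transcripts could be mistaken for each other.
FZD9 and FZD10: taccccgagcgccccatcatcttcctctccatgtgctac

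The non-coding gene FZD10-DT starts 203 bases before FZD10 and runs in the opposite direction, and it was named after its values had been seen. FZD10-DT stood at 0.0186, 0.0656 and 0.179 FPKM in the OV-BRCA1 samples and 0.782, 0.423 and 0.521 in the NC samples. It was lower in every OV-BRCA1 sample, as FZD10 was, but its levels were too low for the test. Its estimated fragments were 3.08 to 8.15 per OV-BRCA1 sample and 19.2 to 32.6 per NC sample.

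**Figure D3:**
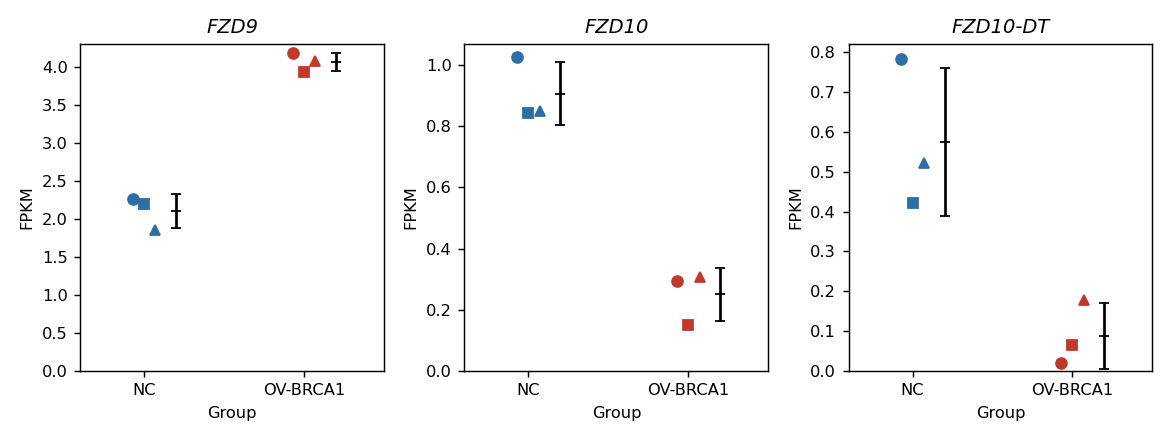
FPKM of FZD9, FZD10 and the divergent non-coding gene FZD10-DT by group, with a point per sample, symbols for the replicate number and bars for mean and SD (n = 3 each). FZD9 lies near 4.06 in OV-BRCA1 and 2.10 in NC, while FZD10 and FZD10-DT are lower in OV-BRCA1.

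FZD4 is the receptor for norrin as well as for WNT ligands and is known for its part in retinal vessel growth. Its FPKM was 2.90, 3.10 and 3.17 in OV-BRCA1 replicates 1 to 3 and 1.82, 2.05 and 1.88 in the NC replicates. The groups were well apart and each was narrow. The means were 3.06 ± 0.138 and 1.91 ± 0.118 (SD, n = 3 each), a ratio of 1.60 and a log2 fold change of 0.48 (SE 0.08, limma adjusted p = 0.00560). FZD4 was called in all 14 alternatives. The gene (ENSG00000174804, chromosome 11, 86945679 to 86955391, minus strand) has 2 exons in its only listed transcript and lies with 7232 bases inside PRSS23, a protease gene on the opposite strand. Of the 150-base stretches of the FZD4 transcript, 15.4% are also found, on the other strand, in transcripts of PRSS23, and the use of strand in the counting is not stated. The PRSS23 transcripts with these stretches had at most 0.287 FPKM in any sample. PRSS23 as a whole was not called, with 8.85, 15.9 and 16.5 FPKM in the OV-BRCA1 samples and 11.7, 11.4 and 13.4 in the NC samples (log2 fold change 0.12, 95% confidence interval -0.43 to 0.66, limma adjusted p = 0.717). The interval contains the FZD4 value, and the part of PRSS23 reads in the FZD4 difference was not tested.

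FZD8, a WNT receptor closely related to FZD5, was also called higher. Values were 1.45, 1.76 and 1.43 FPKM in the OV-BRCA1 samples against 0.815, 0.905 and 1.04 in the NC samples. The groups did not overlap, with the lowest OV-BRCA1 sample above the highest NC sample. The means were 1.55 ± 0.189 and 0.922 ± 0.115 (SD, n = 3 each), and the log2 fold change was 0.41 (SE 0.10, limma adjusted p = 0.0212). With a pseudocount of 0.1 it was 0.69. FZD8 missed the threshold without OV-BRCA1 replicate 2 (log2 fold change 0.34, adjusted p = 0.0606), without NC replicate 1 (0.37, adjusted p = 0.0656) and without NC replicate 2 (0.40, adjusted p = 0.0603), and also with all samples and no filter on low values (0.41, adjusted p = 0.0694). The call was lost in 5 of 14 alternatives, and its adjusted p over all alternatives ran from 0.00858 to 0.0694. FZD8 (ENSG00000177283, chromosome 10, 35638249 to 35642278, minus strand) is another gene of 1 exon, and the samples held an estimated 53.5 to 118 fragments of it.

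FZD5, the closest relative of FZD8, did not pass the test. FZD5 stood at 0.721, 0.827 and 0.906 FPKM in the OV-BRCA1 samples and at 0.656, 0.824 and 0.665 in the NC samples, and the groups overlapped. The log2 fold change was 0.08, with a 95% confidence interval of -0.14 to 0.30. The ratio of FZD8 to FZD5 within a sample was 1.58 to 2.13 in OV-BRCA1 and 1.10 to 1.57 in NC.

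Promoter sequences were at hand for 5 of the 10 genes in the RefSeq table (GRCh38.p14), and those of the 3 among them that rose are printed as the 250 bases before the RefSeq start, 5′ to 3′ on the strand of the gene. Capitals mark GC boxes (GGGCGG on either strand), the commonest of the motifs searched.
FZD9, chr7:73433528-73433777, plus strand: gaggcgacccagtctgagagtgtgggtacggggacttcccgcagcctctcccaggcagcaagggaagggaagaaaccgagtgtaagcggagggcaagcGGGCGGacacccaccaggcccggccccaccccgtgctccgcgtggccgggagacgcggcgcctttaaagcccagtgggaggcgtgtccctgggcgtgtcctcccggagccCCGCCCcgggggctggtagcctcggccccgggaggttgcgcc
FZD8, chr10:35642297-35642546, minus strand: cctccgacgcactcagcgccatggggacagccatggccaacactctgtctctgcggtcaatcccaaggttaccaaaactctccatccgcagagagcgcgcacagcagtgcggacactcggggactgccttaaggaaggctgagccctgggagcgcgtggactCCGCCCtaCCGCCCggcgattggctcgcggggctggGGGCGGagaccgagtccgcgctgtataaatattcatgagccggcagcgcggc
FZD4, chr11:86955396-86955645, minus strand: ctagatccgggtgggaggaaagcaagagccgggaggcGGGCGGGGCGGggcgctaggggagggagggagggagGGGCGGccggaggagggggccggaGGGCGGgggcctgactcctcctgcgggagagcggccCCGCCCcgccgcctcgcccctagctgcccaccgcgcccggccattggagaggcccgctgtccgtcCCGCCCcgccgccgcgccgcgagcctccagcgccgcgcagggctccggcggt
The GC box occurred 2 times in FZD9, 3 times in FZD8 and 6 times in FZD4, overlapping copies included, and 1 time in FZD1 and 6 times in FZD5, which did not pass the test. Of 35116 promoters of the same length, 42.6% hold it. The CCAAT box (CCAAT, either strand) occurred 1 time each in FZD8, FZD4, FZD1 and FZD5 and not in FZD9, beside 32.0% of all promoters. The TATA box (TATAAA, either strand) occurred only in FZD8, beside 10.7%. Neither the core of the interferon-stimulated response element (GAAANNGAA, either strand, in 6.88% of all promoters) nor the TCF/LEF core (CTTTGA, either strand, in 11.2%) occurred in the 5 windows. The windows held 23 CpG in FZD9, 24 in FZD8 and 33 in FZD4, and 19 in FZD1 and 30 in FZD5, which were not called, against a median of 11 over all promoters.

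The most abundant family members in the NC group were FZD6 and FZD2, followed by FZD7 and FZD1. FZD1, FZD2 and FZD7 are close relatives that can all signal through beta-catenin, and FZD2 is also known as a receptor for WNT5A. FZD1 hardly moved, at 3.78, 3.89 and 3.81 FPKM in the OV-BRCA1 samples and 3.91, 3.91 and 4.18 in the NC samples. Its OV-BRCA1 samples were all slightly below its NC samples, yet the log2 fold change was -0.05 with a 95% confidence interval of -0.22 to 0.12 (limma adjusted p = 0.622). FZD7 was at 3.96, 3.77 and 4.63 against 4.11, 3.93 and 4.12 FPKM, and the groups overlapped. Its log2 fold change was 0.02, with a 95% confidence interval of -0.20 to 0.23, and its sign turned with rescaling to nuclear protein-coding genes (-0.0164).

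FZD2 was at 6.28, 6.87 and 7.99 FPKM in the OV-BRCA1 samples and 6.09, 4.53 and 5.79 in the NC samples. The groups did not overlap, but OV-BRCA1 replicate 1 was close to NC replicate 1. The log2 fold change of 0.32 (SE 0.13, limma adjusted p = 0.103) did not pass, with a 95% confidence interval of 0.01 to 0.63 and a ratio of mean FPKM of 1.29. With the trends of GC content and transcript length removed from each sample, a setting added after the data had been seen, FZD2 passed (log2 fold change 0.47, adjusted p = 0.0338, with 0.0338 to 0.247 over its alternatives).

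FZD1, FZD2 and FZD7 are the members whose sequences are most alike. The longest run that any pair of transcripts shares is 81 bases in FZD1 and FZD2, followed by 69 bases in FZD2 and FZD7. It is printed to show how much a short read could not assign.
FZD1 and FZD2: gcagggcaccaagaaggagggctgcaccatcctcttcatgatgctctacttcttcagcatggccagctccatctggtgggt
Of the 50-base stretches of a transcript, 0.463% in FZD1, 2.67% in FZD2 and 0.525% in FZD7 also occur in another gene. No 150-base stretch of these 3 genes does. Their summed FPKM, from which reads exchanged among them would cancel except for differences in length, was 14.02 to 16.4 in OV-BRCA1 and 12.4 to 14.1 in NC (exact two-sided permutation test, p = 0.3).

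Of the pair FZD3 and FZD6, the 1st is known from axon guidance and the 2nd from hair patterning, and both act in planar cell polarity. FZD6 had the highest FPKM of the family in every sample. It stood at 13.05, 18.2 and 16.4 FPKM in the OV-BRCA1 samples and 10.7, 9.83 and 7.75 in the NC samples. The groups did not overlap, although both were wide. The means were 15.9 ± 2.62 and 9.42 ± 1.51 (SD, n = 3 each), a ratio of 1.69 and a log2 fold change of 0.70 (SE 0.15, 95% confidence interval 0.32 to 1.07, limma adjusted p = 0.0158). Without OV-BRCA1 replicate 3 the difference was little changed, at 0.67 on the log2 scale. The call was then lost at a limma adjusted p of 0.0528 (0.0132 to 0.719 over the alternatives). FZD6 (ENSG00000164930, chromosome 8, 103298433 to 103332866, plus strand) overlaps the antisense gene BAALC-AS1 by 340 bases. BAALC-AS1 had 0.541 to 0.803 FPKM in OV-BRCA1 and 0.468 to 0.808 in NC, and did not pass the test.

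The FZD6 value is the sum over 7 listed transcripts, and its split among them varied between samples. The protein-coding transcript with the longest coding sequence was at 0.266, 3.86 and 10.6 FPKM in the OV-BRCA1 samples and 0.837, 0.403 and 5.98 in the NC samples. It took 64.6% and 77.1% of the FZD6 signal in replicate 3 of the 2 groups, and 2.04% to 21.2% in the other samples. Transcripts annotated for nonsense-mediated decay took the rest almost entirely, 76.9% to 98.0% in those other samples. The transcript with the highest mean over all samples was FZD6-202, which is annotated for nonsense-mediated decay and was at 7.77, 5.50 and 2.52 FPKM in the OV-BRCA1 samples and 7.73, 6.22 and 0 in the NC samples. With this transcript in place of the sum, the log2 fold change was 0.56 and FZD6 was not called (limma adjusted p = 0.719). The split between transcripts was therefore far less steady than the sum, and no statement on an isoform change is made. The sum also depends on the split, because the transcripts with signal are 2006 to 3788 bases long. The estimated fragments of FZD6, not scaled for depth, were 561, 956 and 814 in the OV-BRCA1 samples and 428, 486 and 563 in the NC samples. In these the groups touched, at OV-BRCA1 replicate 1 and NC replicate 3.

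**Figure D4:**
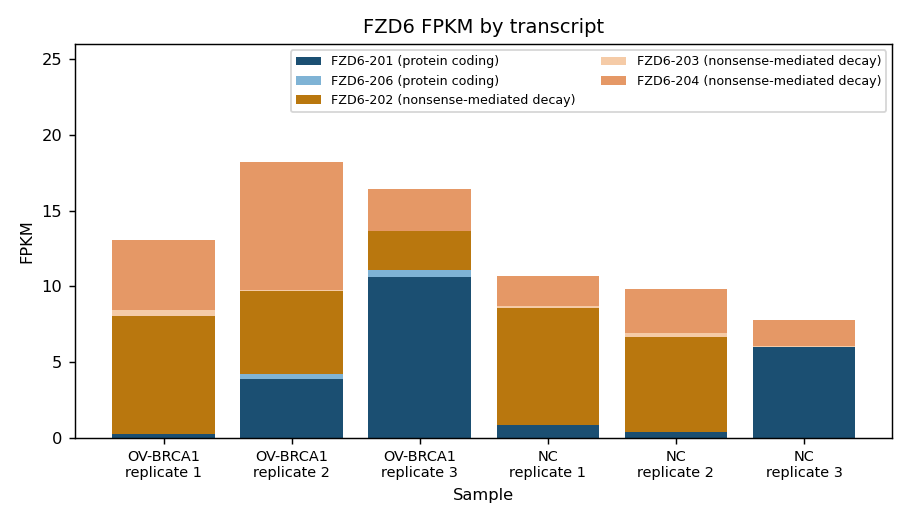
Stacked bars of FZD6 FPKM by transcript in each of the 6 samples, blue for transcripts annotated as protein coding and orange to brown for those annotated for nonsense-mediated decay. The bar heights are 13.05 to 18.2 in OV-BRCA1 and 7.75 to 10.7 in NC, while the blue part is large only in replicate 3 of each group and in OV-BRCA1 replicate 2.

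FZD3 had the least steady FPKM of the 10 genes. It stood at 0.907, 0.654 and 2.22 FPKM in the OV-BRCA1 samples and 0.588, 1.64 and 0.492 in the NC samples. The groups overlapped, with 1 high sample in each. The log2 fold change was 0.23 with a 95% confidence interval of -0.54 to 1.01 (limma adjusted p = 0.610). The high samples were those in which the short transcript FZD3-203 had 1.47 and 1.17 FPKM. It had 0.0209 or less in the other samples. FZD3-203 is 580 bases long, against 13740 for the longest transcript of the gene. The estimated fragments of FZD3 were 202, 121 and 160 in the OV-BRCA1 samples and 132, 135 and 126 in the NC samples. In fragments the samples with high FPKM did not stand out, and the part of transcript length in the FPKM spread was not tested. FZD3 (ENSG00000104290, chromosome 8, 28494205 to 28574268, plus strand) is listed with 4 transcripts.

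Per transcript length, the order of the levels differed between the groups. In the NC group FZD6 was first, then FZD2, FZD7, FZD1, FZD9, FZD4, FZD8, FZD10, FZD3 and FZD5. Ranges of neighbouring genes overlapped for FZD7 and FZD1, for FZD9 and FZD4, and for each neighbouring pair from FZD8 down to FZD5. In the OV-BRCA1 group the order was FZD6, FZD2, FZD7, FZD9, FZD1, FZD4, FZD8, FZD3, FZD5 and FZD10, with overlapping ranges for FZD7 and FZD9, for FZD8 and FZD3 and for FZD3 and FZD5. FZD9 thus stood below FZD1 in all NC samples and above it in all OV-BRCA1 samples, and FZD10 became the lowest of the family. None of the genes was abundant. By mean FPKM over all samples, 43.5% of the tested protein-coding genes were above FZD6, and between 64.1% and 98.5% were above the other 9.

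The summed FPKM of the 10 genes was 37.5, 43.2 and 45.0 in the OV-BRCA1 samples and 32.0, 30.7 and 28.6 in the NC samples. All OV-BRCA1 samples were higher, with means of 41.9 ± 3.89 and 30.4 ± 1.69 (SD, n = 3 each), a ratio of 1.38 (exact two-sided permutation test, p = 0.1, the smallest that 3 samples against 3 allow). Without FZD6 the sum was 25.99 ± 2.22 against 21.0 ± 0.258 (SD, n = 3 each), a ratio of 1.24. FZD6 made up 37.8% ± 3.86 of the sum in OV-BRCA1 and 30.9% ± 3.33 in NC, FZD9 9.77% ± 1.19 and 6.90% ± 0.383, and FZD10 0.605% ± 0.229 and 2.98% ± 0.228 (SD, n = 3 each).

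The genes that work with the Frizzled receptors were read from 8 lists of 92 genes. Of these, 51 were tested, 10 were called higher, 9 lower and 32 were not called, which makes 37.3% called against 35.3% of all tested genes. Of the 9 co-receptors and other WNT receptors 7 were tested, and LRP5 (log2 fold change 0.32) and the receptor tyrosine kinase ROR2 (0.31) were called higher. ROR2 reached the filter through its OV-BRCA1 samples alone. Of 10 genes of Frizzled surface turnover 5 were tested. RSPO3, an R-spondin, was at 3.23, 3.07 and 2.88 FPKM in the OV-BRCA1 samples and 0.909, 1.10 and 1.26 in the NC samples, with the groups far apart (log2 fold change 0.96, limma adjusted p = 8.28e-04), and ZNRF3 was higher by 0.23 on the log2 scale. Of the 3 tested genes of Frizzled maturation and WNT secretion 0 were called in limma, and 0 had an unadjusted p below 0.05.

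Of 16 secreted antagonists and Kremen genes 5 were tested, 1 was called higher, 1 lower and 3 were not called. DKK1, which binds LRP6, was higher (log2 fold change 0.39) and had the highest level, with 290.0 to 294 FPKM in OV-BRCA1 and 220.3 to 224 in NC. NOTUM, an enzyme that removes the lipid of WNT ligands, was at 4.37, 3.99 and 4.14 FPKM against 8.99, 8.99 and 10.8 (log2 fold change -1.03, limma adjusted p = 5.12e-04) and was the only gene of this list past the study's criterion. Of the 19 WNT ligands 8 were tested, 1 was called higher and 4 lower, beside 16.4% and 18.9% of all tested genes. Those called lower were WNT5A (log2 fold change -1.01), WNT6 (-1.21), WNT9A (-0.60) and, outside the rule for named genes and named after its value was seen, WNT11 (-0.85). The ligand called higher, also named after its value was seen, was WNT7B (0.65).

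Inside the cell, 7 of 12 Dishevelled proteins and partners were tested, with DVL2 lower (log2 fold change -0.39) and the Dishevelled antagonist NKD2 higher (0.56, through a filter that only its OV-BRCA1 samples passed). Of the planar cell polarity genes 7 of 10 were tested, 3 were called lower and 1 higher, beside 18.9% and 16.4% of all tested genes. Those called lower were CELSR3 (log2 fold change -0.59), SCRIB (-0.57) and CELSR1 (-0.55), and the 1 called higher was VANGL1 (0.33), named after its value was seen. Of 10 genes of beta-catenin and its destruction complex 9 were tested and 2 were called higher, beside the same 16.4%, the kinase CSNK1A1 (0.70) and the scaffold AXIN1 (0.18). These lists were not tested as sets.

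**Figure D5:**
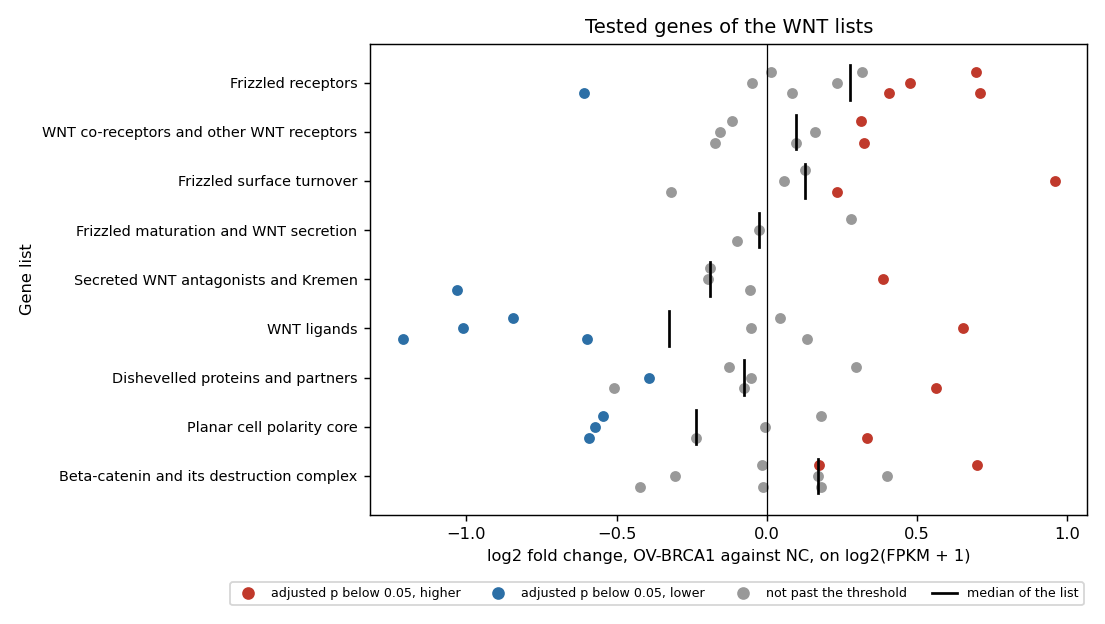
Log2 fold change of OV-BRCA1 against NC on log2(FPKM + 1) for each tested gene of the Frizzled family and of the 8 other WNT lists, red where called higher, blue where called lower and grey where not called, with a black line at the median of each list. The Frizzled median is 0.28, that of the WNT ligands -0.32.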

How the data were processed

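Transcriptome sequencing of 6 SiHa samples was used, 3 per group, with groups and replicate numbers from the labels. The deposited FPKM values come from the authors, who filtered out adapter-containing and low-quality reads and then normalized to FPKM. The submitters' processing notes name HISAT2, FastQC and hg38. The quantification tool, annotation and strand setting are not given in the sources used here. The table of the whole series equals the 6 sample files.

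FPKM of 199167 transcripts were summed per gene and named by GENCODE release 29. Genes that reached 0.5 FPKM in 3 or more samples were tested with limma 3.58.1 in R 4.3.3 (trend, pseudocount 1, no block, Benjamini-Hochberg). The fit was tested on simulated data. Depth was estimated from the FPKM that 1 fragment gives in genes with 1 transcript. Of low values, 32.8% to 37.2% lay within 0.1 of a whole fragment, so depths are estimates and whole reads were not recovered. The SD covers the spread between samples.

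All 10 members are named, with up to 3 called genes of each WNT list by adjusted p, BRCA1, and overlapping genes with a mean of at least 0.5 FPKM. Markers are also named. FZD10-DT, WNT7B, WNT11 and VANGL1 were chosen after their values were seen. The members and lists were chosen with earlier results of these data known. Alternatives were a pseudocount of 0.1, other filters, a replicate block, each sample left out, the most abundant transcript, other scalings and, added later, removal of GC and length trends (loess span 0.5). Coding identity used global alignment in Biopython 1.88.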

Additional observations from a re-analysis of the deposited data

How the results depend on the processing

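Over 134 combinations of a Frizzled gene and an alternative, 122 kept the direction and the side of the threshold, 7 lost the call, 1 gained it and 4 changed sign. FZD9, FZD4 and FZD10 kept their calls wherever they were tested (14, 14 and 10 alternatives). FZD10 was not tested when an NC replicate was left out or with a mean of at least 1 FPKM, because it no longer passed the filter. FZD8 lost its call in 5 alternatives and FZD6 in 2. The sign changes were in genes that were not called, FZD7 with nuclear protein-coding scaling (-0.0164), FZD7 over the left-out replicates (-0.0548 to 0.0646) and FZD3 over the left-out replicates (-0.0524 to 0.492). The number of Frizzled genes called was 3 to 5 over the left-out replicates and 4 to 6 in the other settings. With a pseudocount of 0.1, 1 passed the cuts of the study's criterion in limma, against 0 with the pseudocount of 1. With the most abundant transcript in place of the sum, 3291 genes in all (5764 before) and 11 genes of the WNT lists (19 before) were called, and the cause was not tested. The difference of the summed FPKM kept its direction in 8 of 8 alternatives, and p could not fall below 0.1.

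With the replicate number as a block, 4 Frizzled genes were called and FZD8 missed the threshold (adjusted p = 0.0579 from limma), beside 4595 genes in all and 15 of the WNT lists. The labels give the same numbers to both groups, but same-numbered samples did not deviate together (correlations of -0.0244, 0.0250 and 0.0136), and 2 of 3 OV-BRCA1 samples correlated best with their own number. Depth limits FZD10 most, with an estimated 8.17 to 15.7 fragments per OV-BRCA1 sample.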
